A study of Mus musculus with 12 samples.

Results

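The insulin-like growth factor (IGF) ligands, their signalling receptor and their binding proteins were followed in murine hip cartilage before and after injury. The members were Igf1, Igf2, Igf1r, Igfbp2, Igfbp3, Igfbp4, Igfbp5, Igfbp6 and Igfbp7, 9 of the 15434 gene symbols with a normalized value, and they were found by symbol on the array. They carried 16 probes, namely 3 each for Igf1 and Igfbp5, 2 each for Igfbp2, Igfbp3 and Igfbp4, and 1 each for Igf2, Igf1r, Igfbp6 and Igfbp7. Of the 16 probes, 13 were detected on all 12 arrays at a detection p under 0.05. The exceptions were the third probe of Igf1 and both probes of Igfbp2.

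IGF-1 and IGF-2 are secreted growth factors that bind the IGF-1 receptor, a receptor tyrosine kinase that signals through the PI3K and AKT pathway. The IGF-binding proteins hold the ligands outside the cell and either limit or prolong their access to the receptor, and proteases release the ligand by cutting them. In cartilage IGF-1 is known as the main factor that drives chondrocytes to make aggrecan and type II collagen and to survive, and in the growth plate it acts downstream of growth hormone.

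RNA was measured on 1-colour Illumina mouse BeadChips in 4 groups of 3 arrays each. All mice were C57BL6 of 4 to 6 weeks, either WT or Mapk9 KO. Mapk9 encodes JNK2, a kinase of the stress-activated JNK family. The sources used here do not describe the deleted allele. Injury was avulsion of the femoral epiphysis, the cap of the thigh bone at the hip. Control hips were frozen at once, whereas injured hips were kept in culture for 4 h, so that injury and culture cannot be told apart in any comparison given here. The study's methods describe hips of several animals pooled in a sample, and the p-values measure the spread between these pools. The question put to the data was how each member of the IGF system changed post injury, and whether this change differed without Mapk9.

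The array values are normalized log2 values, on which a difference of 1 is a 2-fold difference. Arrays had 16930 to 18969 probes detected and a median log2 value of 7.55 to 7.70. The probes of a gene are numbered by their mean brightness, and levels of different probes are not compared because each probe binds with its own strength. The brighter Mapk9 probe was at 10.88, 10.90 and 10.50 in WT control, 10.30, 10.57 and 10.05 in WT injured, 9.14, 9.28 and 9.15 in Mapk9 KO control, and 8.75, 8.78 and 8.69 in Mapk9 KO injured. It was 2.97-fold lower in Mapk9 KO than in WT controls (limma, adjusted p = 0.0151) and still detected on all KO arrays, while the dimmer Mapk9 probe was detected on no KO array. Where either probe lies relative to the deletion was not given in the sources used here. WT control replicate 2 stood apart at several members, with the lowest of all 12 values at Igf2 and at the second probes of Igfbp2 and Igfbp3, and results are given with and without it where leaving it out moved them most.

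Chondrocyte markers, among them Col2a1 and Acan, were detected on all arrays, so the tissue held cartilage. Their mean log2 value was 10.27 to 10.98 in WT control, 12.03 to 12.36 in WT injured, 10.23 to 10.92 in Mapk9 KO control and 12.13 to 12.34 in Mapk9 KO injured, and 6 of the 8 measured markers were upregulated post injury in each genotype. Skeletal muscle markers moved the other way. Their mean log2 value was 11.70 to 12.94 in WT control, 8.76 to 10.85 in WT injured, 13.09 to 13.61 in Mapk9 KO control and 9.27 to 10.57 in Mapk9 KO injured, with 9 of 10 markers downregulated in WT and 10 of 10 in Mapk9 KO. Of 5 macrophage markers, 3 were downregulated in WT and 4 in Mapk9 KO, and none was upregulated. Their mean log2 value was 9.56 to 9.86 in WT control, 8.49 to 8.94 in WT injured, 9.72 to 9.93 in Mapk9 KO control and 8.23 to 8.49 in Mapk9 KO injured. Their summed raw signal, in contrast, was 8672 to 12979 in WT control, 9966 to 17458 in WT injured, 8883 to 11359 in Mapk9 KO control and 13305 to 17388 in Mapk9 KO injured. Of 3 measured adipocyte markers, 1 was downregulated in WT and 2 in Mapk9 KO, and Plin1 was detected on no WT array, control or injured, and on no Mapk9 KO injured array. The 3 measured markers of fibroblasts, synovium and tendon had a mean log2 value of 11.04 to 11.43 in WT control, 10.11 to 10.78 in WT injured, 11.04 to 11.25 in Mapk9 KO control and 9.92 to 10.43 in Mapk9 KO injured, with 1 downregulated in each genotype. The 5 neutrophil markers were at 12.79 to 13.45 in WT control and 13.80 to 13.98 in WT injured, without overlap, and at 13.10 to 13.60 and 13.48 to 13.95 in Mapk9 KO, where the groups overlapped. Of the 5, 1 was upregulated in each genotype. Their summed raw signal did not overlap in either genotype. It was 48076 to 59548 in WT control, 62144 to 85878 in WT injured, 47739 to 54169 in Mapk9 KO control and 59448 to 73276 in Mapk9 KO injured. Of 5 osteoblast markers, 1 was downregulated in WT and 2 in Mapk9 KO, and their mean log2 value overlapped between control and injured arrays in both genotypes. Their summed raw signal was 41633 to 66536 in WT control, 33878 to 45538 in WT injured, 44003 to 50094 in Mapk9 KO control and 32008 to 39444 in Mapk9 KO injured. The part of these shifts in the changes of the IGF system was not tested.

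**Figure D1:**
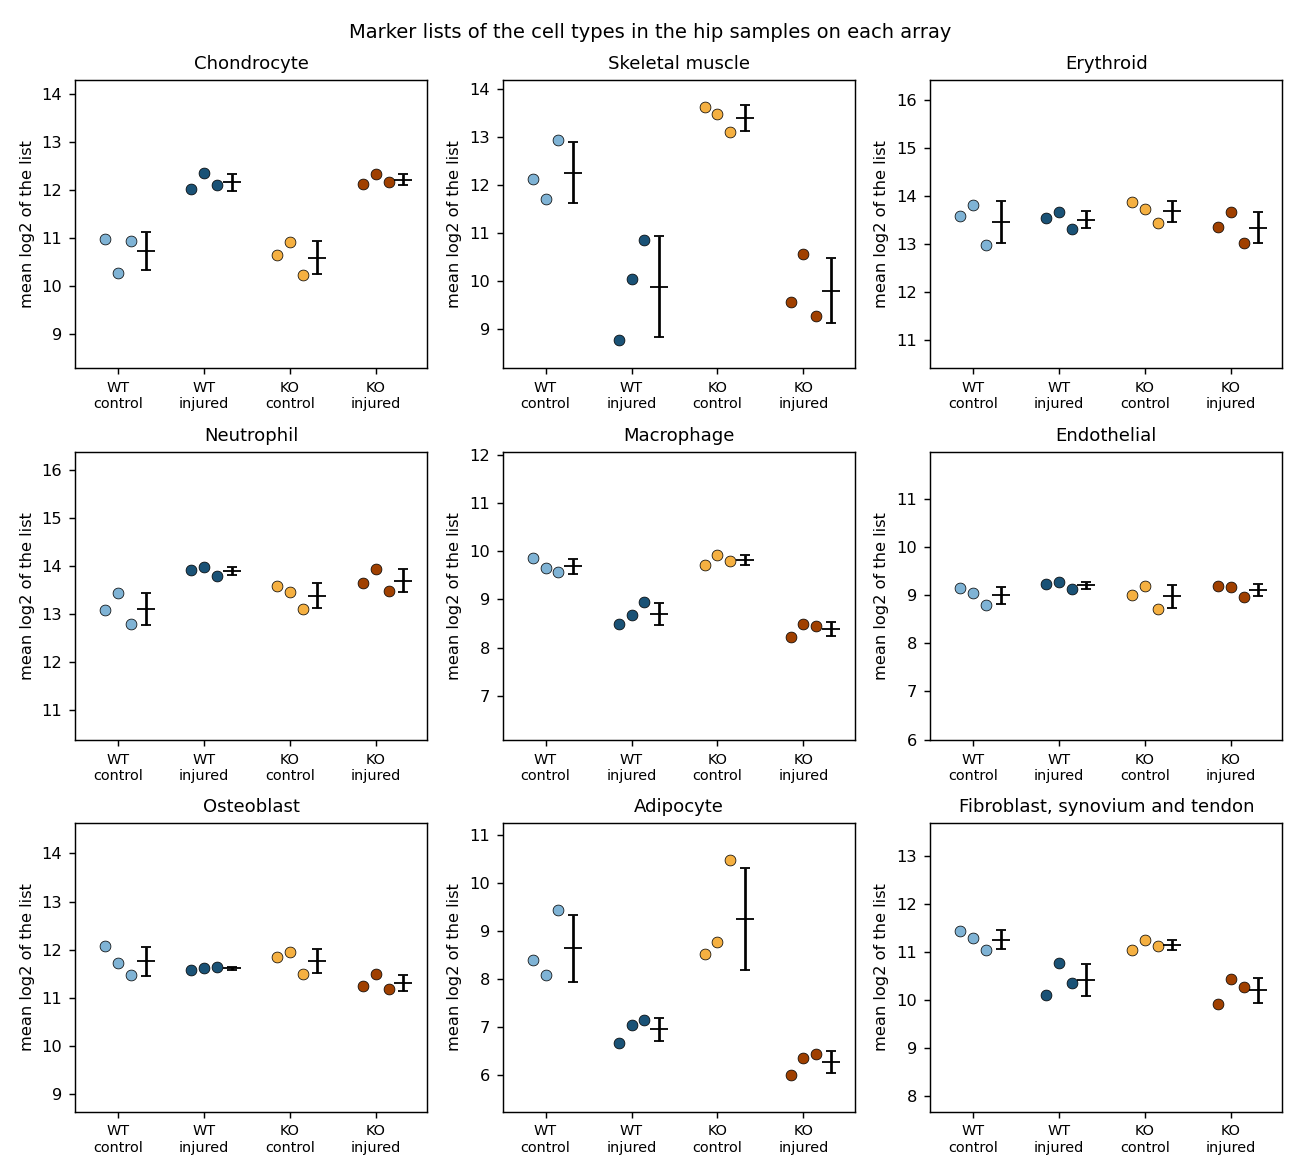
Mean normalized log2 value of 9 cell type marker lists on each array, with 1 point per array (replicates 1 to 3 from left to right) and the group mean with its SD (n = 3 arrays) beside the points. Each vertical axis spans 6 log2 units. Chondrocyte lists sit higher in injured than in control hips of both genotypes, whereas the skeletal muscle, macrophage, adipocyte and fibroblast, synovium and tendon lists sit lower. The neutrophil list sits higher in injured hips without overlap in WT and with overlap in Mapk9 KO.

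Post injury, the ligand Igf1 was downregulated at all of its probes. The receptor Igf1r was upregulated at the probe found by symbol, though not at 2 probes under its older symbols. The binding protein Igfbp3 was upregulated at its first probe in both genotypes and at its second in Mapk9 KO only. Igfbp5 was downregulated at all 3 probes in Mapk9 KO and past the fold limit at 1 of them in WT. Igf2 and Igfbp7, at high normalized values in every group, did not pass the threshold. Up- or downregulated here means a fitted change of more than 2-fold with an adjusted p below 0.05. Where no array of a group detected a probe only a bound is given, and where some did the number is stated and the change is not exact. In WT this bound was under 2-fold for the third Igf1 probe and for Igfbp2, both counted among the calls. In WT, 2 of the 16 member probes were upregulated, where 7.55% of all 21004 probes were, and 5 were downregulated, where 7.14% of all probes were. In Mapk9 KO, 3 were upregulated beside 9.59% of all probes, and 7 were downregulated beside 9.14%. Probes of 1 gene are not independent, and the 5 downregulated probes of WT belonged to 3 genes, as did the 7 of Mapk9 KO. The median log2 change of the 16 probes was -0.64 in WT and -0.76 in Mapk9 KO, and that of all probes was -0.02 in both.

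**Figure D2:**
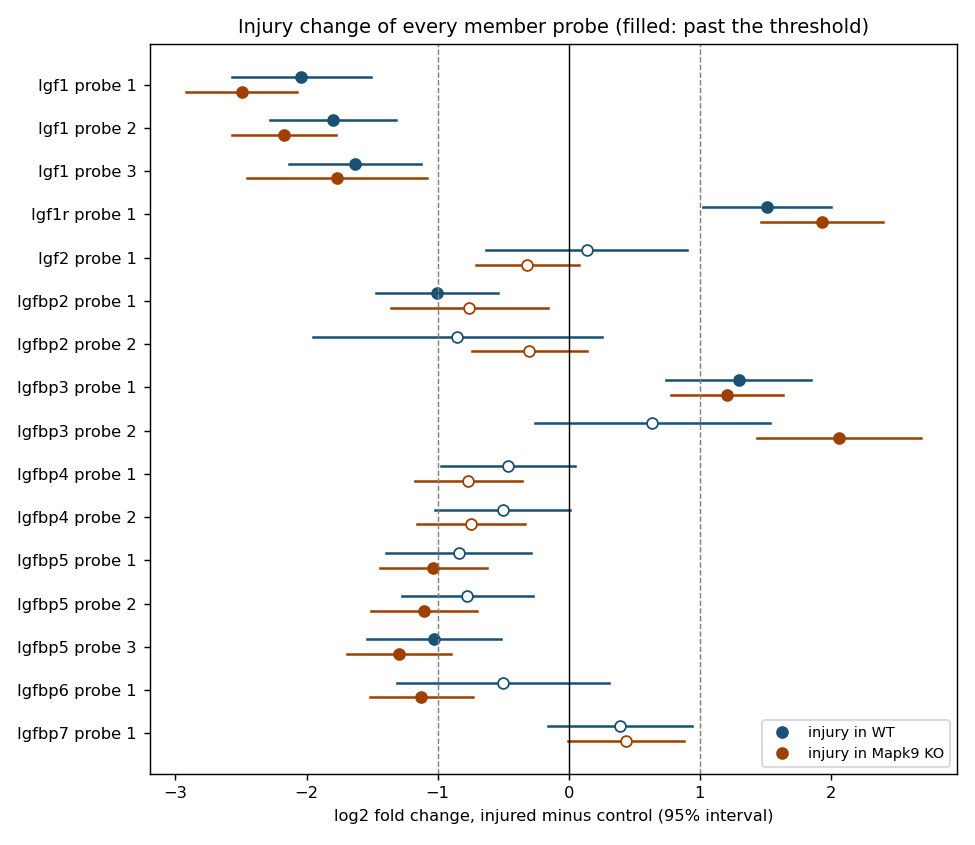
Log2 fold change of each of the 16 member probes, injured minus control, in WT (blue) and Mapk9 KO (brown), with the 95% confidence interval from limma over 6 arrays. Filled points passed a fold of 2 (dashed lines) and an adjusted p of 0.05. The 3 Igf1 probes lie to the left of the dashed line at -1 in both genotypes, and Igf1r and the first Igfbp3 probe lie to the right of the line at 1. The third Igf1 probe and both Igfbp2 probes were not above background in some groups, so that their plotted changes are not exact.

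Igf1 had the largest change of all members. Its brightest probe was at 11.30, 11.50 and 10.76 in WT control and at 8.94, 9.34 and 9.16 in WT injured. The Mapk9 KO arrays gave 11.30, 11.60 and 11.09 in control and 8.72, 9.02 and 8.77 in injured hips. Every injured array was thus lower than every control array. Igf1 was 4.11-fold lower post injury in WT (log2 change -2.04, SE 0.24, adjusted p = 0.000267) and 5.63-fold lower in Mapk9 KO (log2 change -2.49, SE 0.19, adjusted p = 3.82e-06). In whole tissue, fewer cells that express Igf1 and less Igf1 RNA per cell cannot be told apart.

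The other Igf1 probes gave the same direction. The second probe was at 9.77, 9.83 and 9.41 in WT control and 7.62, 7.92 and 8.08 in WT injured, a log2 change of -1.80 (SE 0.22, adjusted p = 0.000301). It was at 9.997, 10.12 and 9.69 in Mapk9 KO control and 7.85, 7.71 and 7.72 in Mapk9 KO injured, a log2 change of -2.17 (SE 0.18, adjusted p = 6.21e-06). The third probe was detected on all control arrays and on no injured array, so that only a bound can be given. It was at least 1.90-fold lower post injury in WT (adjusted p = 0.000688) and at least 2.04-fold lower in Mapk9 KO (adjusted p = 0.00111), taking as the injured level the lowest signal detected on each array or the probe's own, whichever was higher. When raw signals were only quantile-normalized, with no background step, its changes, -0.58 and -0.67, were short of the fold limit, and the methods' t-test lost its Mapk9 KO call (adjusted p = 0.0523). The first and second probes followed each other over the 12 arrays with a Pearson r of 0.990. The second probe, printed here to show which part of the transcript these values read, starts at base 285 of its transcript record.
Igf1 second probe: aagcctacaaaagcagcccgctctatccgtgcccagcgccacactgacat

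Igf1r, the receptor through which both ligands signal, rose. Its probe was at 6.81, 6.26 and 6.62 in WT control and at 8.26, 8.09 and 7.87 in WT injured. The Mapk9 KO values were 6.58, 6.13 and 6.79 in control and 8.64, 8.41 and 8.25 in injured hips, and the control and injured arrays did not overlap. Igf1r was 2.85-fold higher post injury in WT (log2 change 1.51, SE 0.22, adjusted p = 0.000915) and 3.81-fold higher in Mapk9 KO (log2 change 1.93, SE 0.21, adjusted p = 4.43e-05). When signals were only quantile-normalized the WT change was 0.92, short of the fold limit. A further pair of probes carried older symbols of this gene and is not counted among the 16. That of A330103N21Rik was at 9.56, 9.88 and 9.30 in WT control and 10.54, 10.52 and 10.48 in WT injured, a log2 change of 0.93 (SE 0.21, adjusted p = 0.00958), and it changed by 0.88 in Mapk9 KO (SE 0.22, adjusted p = 0.00837), in both below the fold limit. That of D930020L01, near the detection limit, changed by 0.19 in WT (adjusted p = 0.599) and by 0.31 in Mapk9 KO (adjusted p = 0.237). It was detected on 2 of 3 control arrays in each genotype, so that these changes are not exact. The counted Igf1r probe starts at base 3497 of its transcript record.
Igf1r probe: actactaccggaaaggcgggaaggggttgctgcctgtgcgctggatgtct

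Igf2, the second ligand, is an imprinted fetal growth factor whose expression declines after birth in most tissues. Its probe was at 12.45, 11.09 and 11.998 in WT control and 11.56, 12.39 and 12.01 in WT injured, and these groups overlapped. In Mapk9 KO it was at 12.17, 12.40 and 12.01 in control and 11.92, 11.95 and 11.76 in injured hips, each injured array just below the controls. The log2 change was 0.14 in WT (95% interval -0.63 to 0.90, adjusted p = 0.813) and -0.32 in Mapk9 KO (-0.71 to 0.08, adjusted p = 0.189), so that a 2-fold change lay outside both intervals. Without WT control replicate 2, the WT change was -0.24 (SE 0.28, adjusted p = 0.574).

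**Figure D3:**
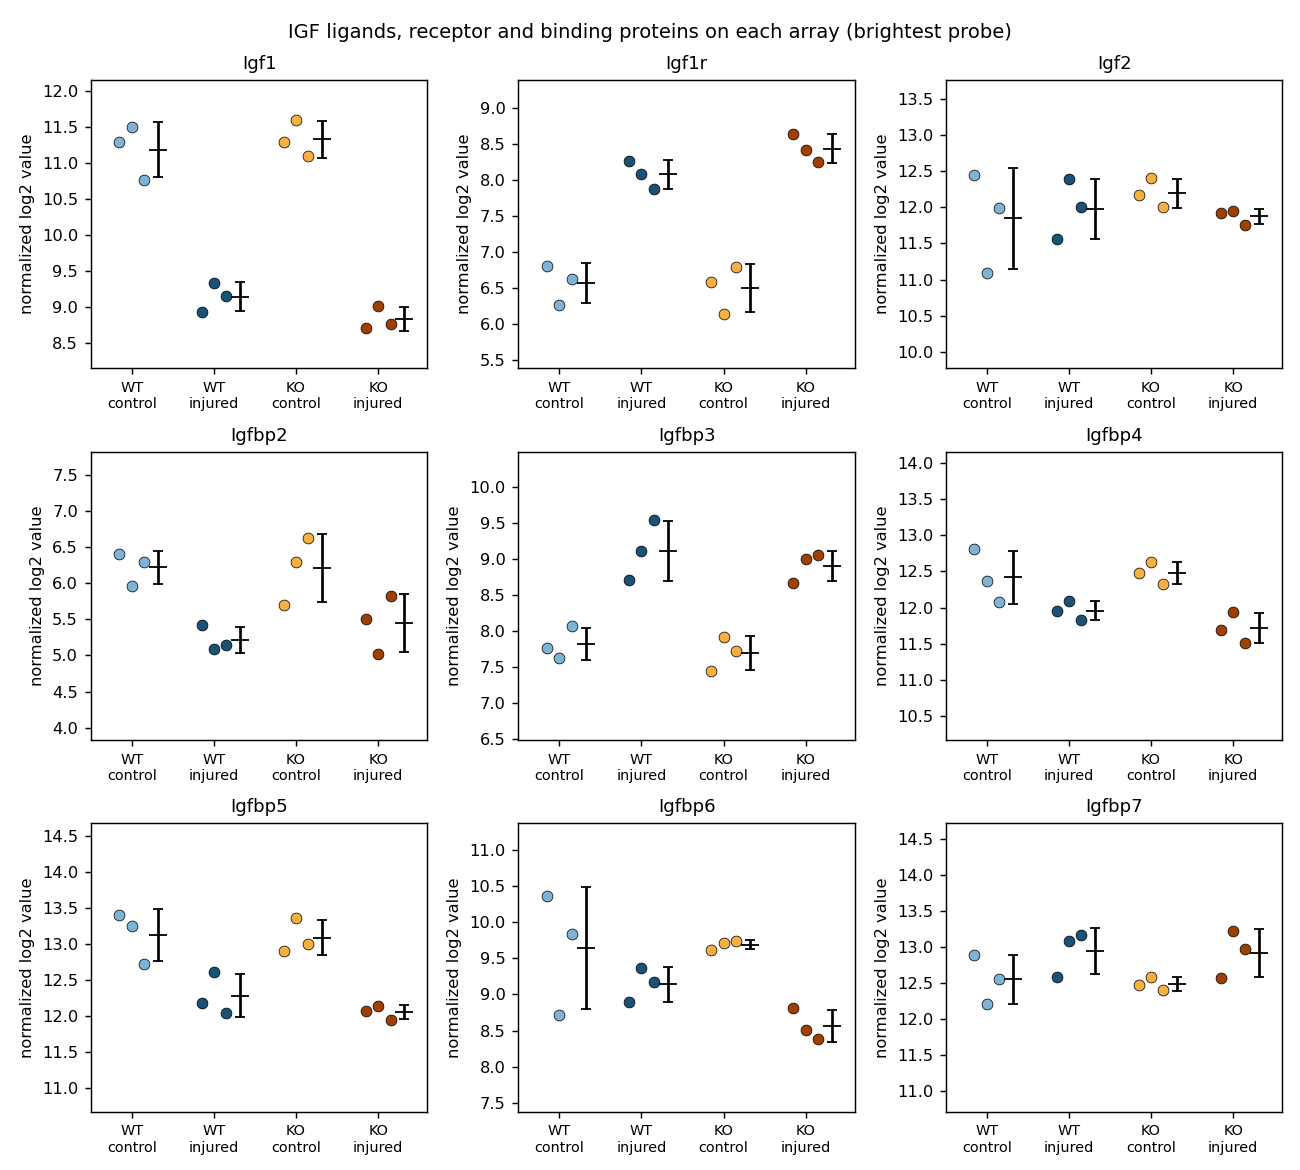
Normalized log2 value of the brightest probe found by symbol for each of the 9 members on each array, with 1 point per array (replicates 1 to 3 from left to right) and the group mean with its SD (n = 3 arrays) beside the points. The brighter A330103N21Rik probe, under an older symbol of Igf1r, is not shown. Each vertical axis spans 4 log2 units. Control and injured arrays lie apart for Igf1, Igf1r, Igfbp3 and Igfbp5 in both genotypes, and WT control replicate 2 lies low for Igf2 and Igfbp6.

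Igfbp3 was the binding protein that rose. IGFBP-3 is the main carrier of IGF in blood and is also made by chondrocytes. Its first probe was at 7.77, 7.63 and 8.06 in WT control and 8.70, 9.11 and 9.53 in WT injured. The Mapk9 KO arrays gave 7.44, 7.91 and 7.72 in control and 8.67, 8.99 and 9.05 in injured hips, with no overlap in either genotype. It was 2.45-fold higher in WT (log2 change 1.29, SE 0.25, adjusted p = 0.00427) and 2.31-fold higher in Mapk9 KO (log2 change 1.21, SE 0.19, adjusted p = 0.000642). The WT call was lost in the methods' t-test (adjusted p = 0.0622), and when signals were only quantile-normalized the changes were 0.98 and 0.90.

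The second Igfbp3 probe did not pass the threshold in WT. It was at 8.29, 6.77 and 7.85 in WT control and 8.81, 7.61 and 8.39 in WT injured, overlapping groups with a log2 change of 0.64 (SE 0.40, adjusted p = 0.283). In Mapk9 KO it was at 7.55, 6.99 and 6.99 in control and 9.73, 8.61 and 9.36 in injured hips, a 4.17-fold rise (log2 change 2.06, SE 0.28, adjusted p = 0.000225). Over the 12 arrays the 2 probes followed each other with a Pearson r of 0.620. Each WT injured array was above the control of the same replicate number, by 0.53, 0.85 and 0.54, and with the replicate number as a block the WT change had an adjusted p of 0.0324 (limma), still short of the fold limit. Replicate 2 was the lowest of its group in all 4 groups, though nearly level with replicate 3 in Mapk9 KO control. Leaving out the WT control array of replicate 2 alone gave a WT change of 0.20 (SE 0.33, adjusted p = 0.698). The second probe starts at base 770 of its transcript record.
Igfbp3 second probe: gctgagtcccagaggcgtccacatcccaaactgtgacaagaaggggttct

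Igfbp5, a binding protein that attaches to matrix and is made by muscle, bone and cartilage cells, fell. Its first probe was at 13.40, 13.24 and 12.72 in WT control and 12.18, 12.61 and 12.04 in WT injured. Mapk9 KO arrays were at 12.90, 13.36 and 13.00 in control and 12.07, 12.14 and 11.94 in injured hips. Injured arrays were below control arrays in both genotypes. The log2 change was -0.84 in WT (SE 0.25, adjusted p = 0.0312), short of the fold limit, and -1.03 in Mapk9 KO (SE 0.18, adjusted p = 0.00123). The second probe changed by -0.77 in WT (adjusted p = 0.0295) and -1.10 in Mapk9 KO (adjusted p = 0.000753). The third probe was called in both, with -1.03 in WT (SE 0.23, adjusted p = 0.00918) and -1.29 in Mapk9 KO (SE 0.18, adjusted p = 0.000247). The 3 probes followed one another with a Pearson r of 0.947 to 0.979. In WT the third probe lost its call when control replicate 1 was left out (log2 change -0.81) and when injured replicate 1 was left out (-0.99), and also in the methods' t-test (adjusted p = 0.0671) and with array medians subtracted (-0.98). The first and second probes passed in WT with normexp background correction and quantile normalization, at -1.11 and -1.04, and with quantile normalization alone, at -1.09 and -1.02. The first probe also passed in WT without control replicate 3 (-1.04) or injured replicate 2 (-1.01). In Mapk9 KO the first probe lost its call without control replicate 2 (-0.90) or injured replicate 3 (-0.98), and with quantile normalization alone (-0.99).

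Igfbp4, an inhibitory binding protein that is cleaved by the protease PAPP-A, was lower in the injured hips but never past the fold limit. Its first probe was at 12.81, 12.36 and 12.08 in WT control and 11.95, 12.09 and 11.83 in WT injured, with 1 injured array above the lowest control. The Mapk9 KO values were 12.48, 12.63 and 12.33 in control and 11.69, 11.94 and 11.51 in injured hips, without overlap. The log2 change was -0.46 in WT (SE 0.23, adjusted p = 0.173) and -0.77 in Mapk9 KO (SE 0.18, adjusted p = 0.00713). The second probe gave -0.50 (adjusted p = 0.144) and -0.74 (adjusted p = 0.00905), and the 2 probes had a Pearson r of 0.953.

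Igfbp6, which binds IGF-2 in preference to IGF-1, was called in Mapk9 KO. Its probe was at 9.62, 9.71 and 9.74 in Mapk9 KO control and at 8.81, 8.50 and 8.38 in Mapk9 KO injured, a 2.18-fold fall (log2 change -1.12, SE 0.18, adjusted p = 0.000600), though -0.94 when signals were only quantile-normalized. In WT it was at 10.37, 8.72 and 9.84 in control and 8.89, 9.36 and 9.17 in injured hips, where control replicate 2 lay below all 3 injured arrays. The WT log2 change was -0.50 (SE 0.36, adjusted p = 0.354), and without that array it was -0.96 (SE 0.25, adjusted p = 0.0160), still short of the fold limit. Leaving out each WT array in turn gave -0.96 to -0.14, with an adjusted p of up to 0.817 (limma). The probe starts at base 708 of its transcript record.
Igfbp6 probe: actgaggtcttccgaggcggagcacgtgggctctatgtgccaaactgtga

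Igfbp2, a binding protein abundant in fetal tissues, was near the detection limit. Its first probe was at 6.41, 5.97 and 6.30 in WT control and at 5.42, 5.09 and 5.14 in WT injured, and it was detected on all 3 control and on no injured array of WT. It was at least 1.30-fold lower in WT injured hips (adjusted p = 0.00650). The call was lost when control replicate 1, control replicate 3, injured replicate 2 or injured replicate 3 was left out, and also with normexp and quantile normalization, quantile normalization alone and array medians subtracted. In Mapk9 KO, where it was detected on 2 control arrays and 1 injured array, it was at 5.70, 6.30 and 6.63 in control and 5.51, 5.03 and 5.82 in injured hips, overlapping groups that did not pass the threshold (adjusted p = 0.0477). Without Mapk9 KO control replicate 1 it was called (adjusted p = 0.0110), and with values this close to background the size of the change is not exact. The second probe was at 6.76, 4.31 and 6.06 in WT control and 4.996, 4.97 and 4.60 in WT injured. It was detected on 2 of the 3 control arrays and on no injured array of WT, and did not pass (adjusted p = 0.248). The mean of the controls was below the detection limit of the injured arrays, so that no fold is given. Without WT control replicate 2 it passed the threshold (adjusted p = 0.00159) and was at least 1.48-fold lower.

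Igfbp7, also known as mac25 and a weak binder of IGF, did not pass the threshold. Its probe was at 12.89, 12.20 and 12.56 in WT control and 12.58, 13.08 and 13.17 in WT injured. In Mapk9 KO it was at 12.47, 12.58 and 12.40 in control and 12.56, 13.22 and 12.97 in injured hips, with overlap in both genotypes. The log2 change was 0.39 in WT (95% interval -0.16 to 0.94, adjusted p = 0.285) and 0.44 in Mapk9 KO (-0.01 to 0.88, adjusted p = 0.111). Without WT control replicate 2 the WT change was 0.22 (SE 0.25, adjusted p = 0.574).

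Averaged over both genotypes, with all 12 arrays, 3 member probes were upregulated, namely that of Igf1r and both of Igfbp3, beside 8.06% of all probes. Downregulated were 4, the 3 of Igf1 and the third of Igfbp5, beside 7.91% of all probes. Igf1 changed by -2.27 (SE 0.15, adjusted p = 4.15e-08), Igf1r by 1.72 (SE 0.15, adjusted p = 5.25e-07) and the second Igfbp3 probe by 1.35 (SE 0.28, adjusted p = 0.00113). With the adjusted p alone and no fold limit, 14 of the 16 probes passed, where 46.7% of all probes did, the exceptions being Igf2 (adjusted p = 0.759) and the second Igfbp2 probe (adjusted p = 0.141). Without WT control replicate 2 again 14 passed. The second Igfbp2 probe was gained (adjusted p = 0.000408), Igfbp7 was lost (adjusted p = 0.109, against 0.0482 with all arrays), and Igf2 again did not pass (adjusted p = 0.186). Igfbp6 was then called with the fold limit at -1.04 (adjusted p = 5.50e-05).

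No member differed between WT and Mapk9 KO by the threshold, either in control or in injured hips. In control hips 0 of the 16 probes were called by limma, where 0.119% of all probes were, the smallest adjusted p was 0.926, and 0 had an unadjusted p under 0.05, where 6.46% of all probes had. The level of Igf1 in Mapk9 KO relative to WT controls was 0.14 on the log2 scale (95% interval -0.41 to 0.70), and that of Igf1r was -0.06 (-0.60 to 0.48). Without WT control replicate 2 these differences were 0.30 (SE 0.26) and -0.21 (SE 0.26), again 0 probes were called by limma, the smallest adjusted p was 0.310, and 2 probes had an unadjusted p under 0.05. These were the second Igfbp3 probe, at -0.89 (SE 0.27) against -0.46 with all arrays, and the second Igfbp2 probe, for which no difference is given because it was detected on 2 of 3 WT control and 1 of 3 Mapk9 KO control arrays. Igfbp6 was at -0.42 without that array against 0.05 with it, and Igf2 at -0.03 against 0.35. In injured hips 0 probes were called by limma, where 0.181% of all probes were, the smallest adjusted p was 0.244, and 3 had an unadjusted p under 0.05, where 12.6% of all probes had. These were the second Igfbp3 probe, higher in Mapk9 KO by 0.96 on the log2 scale (SE 0.34, adjusted p = 0.303), Igfbp6, lower by 0.58 (SE 0.19, adjusted p = 0.276), and the second Igfbp2 probe, which was detected on no injured array of either genotype, so that no difference is given. With the replicate number as a block the second Igfbp3 probe had an adjusted p of 0.0344 in this comparison (limma), short of the fold limit. The methods' t-test called 0 in both comparisons. Of the probes detected on every array compared, the 95% interval lay within a 2-fold difference either way for 12 of 14 in control hips and 11 of 13 in injured hips. Skeletal muscle markers, at 11.70 to 12.94 in WT control and 13.09 to 13.61 in Mapk9 KO control, did not overlap between the control groups (median log2 difference 1.02), and their part in these comparisons was not tested.

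Whether the injury change itself differed by genotype was tested with the interaction over all 12 arrays. Here 0 of the 16 member probes passed an adjusted p of 0.05 in limma, as did 0% of all 21004 probes, of which 9.94% had an unadjusted p under 0.05. The 1 member probe with an unadjusted p under 0.05 was the second of Igfbp3, whose change was larger in Mapk9 KO by 1.42 on the log2 scale (95% interval 0.22 to 2.62, adjusted p = 0.420). Its adjusted p was 0.0549 with the replicate number as a block (limma). For the first Igfbp3 probe the same difference was -0.09 (-0.77 to 0.60), and 0.0098 without WT control replicate 2. The difference was -0.45 for Igf1 (95% interval -1.11 to 0.20), 0.42 for Igf1r (-0.23 to 1.07) and -0.62 for Igfbp6 (-1.57 to 0.33). Without WT control replicate 2 that of Igfbp6 was -0.16 (SE 0.29), that of Igf2 was -0.07 (SE 0.33) against -0.45 with all arrays, and that of the second Igfbp3 probe was 1.85 (SE 0.49, adjusted p = 0.139). The second Igfbp2 probe then also had an unadjusted p under 0.05 (adjusted p = 0.139), and no difference is given for it because no injured array detected it. A difference of 2-fold between the genotypes in the injury change lay outside the interval for 8 of the 13 probes detected on all 12 arrays.

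Other genes of the IGF pathway were taken from a list of 42, of which 34 had a probe, 58 probes in all. In WT 5 of the 58 probes were upregulated, where 7.55% of all probes were, and 2 downregulated, where 7.14% were. In Mapk9 KO 7 were upregulated beside 9.59% of all probes and 2 downregulated beside 9.14%. The median log2 change of the brightest probe per gene was 0.13 in WT and 0.05 in Mapk9 KO. Among the other binding proteins, their proteases and the inhibitors of these proteases, 6 of 8 genes were measured, and 2 were upregulated and 1 downregulated in each genotype. The upregulated ones were Stc1 and Stc2, which encode stanniocalcins, secreted inhibitors of PAPP-A. Stc1 was at 8.19, 7.18 and 7.91 in WT control, 11.56, 11.53 and 11.66 in WT injured, 7.11, 7.62 and 7.29 in Mapk9 KO control and 11.17, 11.25 and 11.06 in Mapk9 KO injured. It was 14.2-fold higher post injury in WT (log2 change 3.82, SE 0.26, adjusted p = 1.20e-05) and 14.1-fold higher in Mapk9 KO (log2 change 3.82, SE 0.19, adjusted p = 2.21e-07). Stc2 rose 4.67-fold in WT (adjusted p = 0.000200) and 5.99-fold in Mapk9 KO (adjusted p = 3.46e-06). Igfals, the subunit that completes the circulating complex of IGF and IGFBP-3, was at least 2.10-fold lower in WT, where it was detected on no injured array (adjusted p = 0.0111), and 2.56-fold lower in Mapk9 KO (adjusted p = 0.000428), where 2 of 3 injured arrays detected it, so that this fold is not exact. Pappa itself, which encodes PAPP-A, changed by -0.09 in WT (adjusted p = 0.784) and -0.51 in Mapk9 KO (adjusted p = 0.122).

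Of the receptors and docking proteins 8 of 10 were measured. Irs2, a docking protein that links the receptor to PI3K, was upregulated in WT (log2 change 1.33, SE 0.22, adjusted p = 0.00168) and changed by 0.95 in Mapk9 KO (SE 0.17, adjusted p = 0.00121), short of the fold limit. Insr, the insulin receptor, passed at 1 of its 3 probes in Mapk9 KO (log2 change 1.05, adjusted p = 0.000740), and the same probe changed by 0.69 in WT (adjusted p = 0.0245). Its brightest probe changed by -0.27 in WT (adjusted p = 0.387) and -0.20 in Mapk9 KO (adjusted p = 0.369). Grb14, an adaptor that inhibits the receptors, passed in Mapk9 KO at a probe that was detected on no control array, at least 1.05-fold higher (adjusted p = 0.0369). Of the injured arrays 2 of 3 detected that probe, so that the bound is not exact. The brightest Grb14 probe changed by 0.94 in Mapk9 KO (adjusted p = 0.0187) and 0.56 in WT (adjusted p = 0.115), short of the fold limit. In Mapk9 KO 2 of 3 control arrays detected it, so that the change of 0.94 is not exact. The remaining Grb14 probe, detected on no Mapk9 KO injured array, was at least 1.44-fold lower there (adjusted p = 0.00435). Of the growth hormone axis 4 of 5 genes were measured and 0 passed the threshold in limma in either genotype, with 2 of 8 probes in WT and 4 in Mapk9 KO at an unadjusted p under 0.05, where 37.1% and 46.8% of all probes were. The brightest Ghr probe, for the growth hormone receptor, changed by -0.36 in WT (adjusted p = 0.200) and -0.59 in Mapk9 KO (adjusted p = 0.0575). Of the Igf2 mRNA-binding proteins and the imprinted neighbour H19, 3 of 4 were measured and 0 passed in limma, with 1 of 6 probes in WT and 3 in Mapk9 KO at an unadjusted p under 0.05, beside the same shares of all probes. The brightest H19 probe changed by 0.41 in WT (adjusted p = 0.262) and -0.33 in Mapk9 KO (adjusted p = 0.186).

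Of the PI3K, AKT and FOXO genes 13 of 15 were measured, and 2 were upregulated and 1 downregulated in each genotype. Of their 22 probes, 2 were upregulated and 1 downregulated in WT, and 3 and 1 in Mapk9 KO. These probe counts are to be read against the shares of all probes given for the whole list. Foxo3, a transcription factor that AKT keeps out of the nucleus, was called in WT at its dimmer probe, at least 1.18-fold higher (adjusted p = 0.000572), and in Mapk9 KO at both, with a log2 change of 1.03 at the brighter (adjusted p = 0.000528). In Mapk9 KO the dimmer Foxo3 probe was detected on no control array and on 2 of 3 injured arrays, so that its change there is not exact. Tsc1, a brake on mTOR, was called at a dim probe, at least 1.24-fold higher in WT (adjusted p = 0.00680) and at least 1.14-fold higher in Mapk9 KO (adjusted p = 0.00226), while its brighter probe changed by 0.15 and 0.04. Pik3r2, a regulatory subunit of PI3K, was downregulated by 2.11-fold in WT (adjusted p = 0.00646) and 2.49-fold in Mapk9 KO (adjusted p = 0.000109) at its brighter probe.

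**Figure D4:**
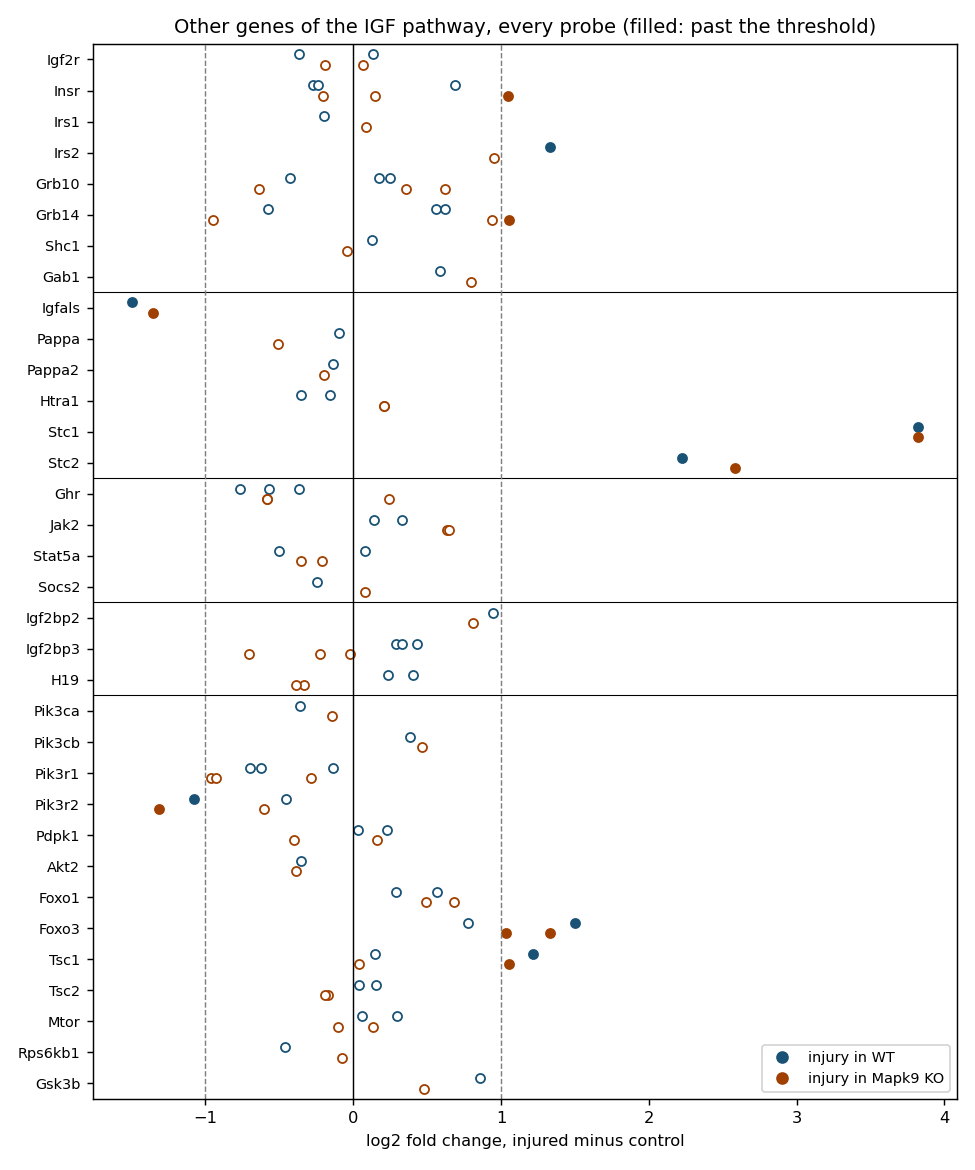
Log2 fold change, injured minus control, of each of the 58 probes of 34 other IGF pathway genes, in WT (blue) and Mapk9 KO (brown). Horizontal lines divide receptors and docking proteins, other binding proteins with their proteases and protease inhibitors, the growth hormone axis, the Igf2 mRNA-binding proteins with H19, and the PI3K, AKT and FOXO genes, from top to bottom. Filled points passed a fold of 2 (dashed lines) and an adjusted p of 0.05. Stc1 and Stc2 lie farthest to the right in both genotypes. Changes of dim probes not above background in a group are not exact.

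Across the 12 arrays, the probes most like Igf1 among 13972 probes of other genes detected on every array were those of Epb4.1l3 (Pearson r = 0.996), Cyp4v3 (r = 0.995) and Pgpep1 (r = 0.994). Igf1 also had the largest SD over the arrays of all members, 1.21 log2 units. Those most like Igf2 were Scamp4 (r = 0.919), Nfix (r = 0.915) and A530030G15Rik (r = 0.912). These values describe arrays of 4 groups, so that any pair of probes with a strong injury change shares much of its pattern.

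The promoters of the 4 members with calls in both genotypes are shown, since JNK kinases act on c-Jun, a subunit of the AP-1 transcription factor. All 9 members matched the RefSeq promoter table of build GRCm38.p6, with 13 promoters. Each sequence is the 250 bases before the gene's start, 5′ to 3′ on the gene's strand. The windows are chr10:87860861-87861110 on the plus strand for Igf1, chr7:67952007-67952256 on the plus strand for Igf1r, chr11:7213924-7214173 on the minus strand for Igfbp3 and chr1:72874866-72875115 on the minus strand for Igfbp5. Capitals mark matches, on either strand, to AP-1 (TGANTCA), CRE (TGACGTCA), the TATA box (TATAAA), the GC box (GGGCGG) or the CCAAT box (CCAAT).
Igf1 promoter: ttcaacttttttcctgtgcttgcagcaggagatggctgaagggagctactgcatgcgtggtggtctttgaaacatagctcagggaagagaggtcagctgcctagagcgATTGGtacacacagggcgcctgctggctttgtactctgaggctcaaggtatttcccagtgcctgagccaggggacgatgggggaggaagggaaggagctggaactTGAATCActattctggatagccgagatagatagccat
Igf1r promoter: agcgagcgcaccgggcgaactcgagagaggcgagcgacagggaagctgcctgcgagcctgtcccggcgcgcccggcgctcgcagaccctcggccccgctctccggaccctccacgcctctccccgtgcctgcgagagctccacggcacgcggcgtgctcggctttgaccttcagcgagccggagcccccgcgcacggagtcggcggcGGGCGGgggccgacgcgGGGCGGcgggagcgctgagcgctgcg
Igfbp3 promoter: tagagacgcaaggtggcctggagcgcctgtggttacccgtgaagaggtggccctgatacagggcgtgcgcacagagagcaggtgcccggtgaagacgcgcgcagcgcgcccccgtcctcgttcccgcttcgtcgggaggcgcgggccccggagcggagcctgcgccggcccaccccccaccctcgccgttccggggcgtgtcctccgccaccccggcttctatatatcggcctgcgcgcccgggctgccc
Igfbp5 promoter: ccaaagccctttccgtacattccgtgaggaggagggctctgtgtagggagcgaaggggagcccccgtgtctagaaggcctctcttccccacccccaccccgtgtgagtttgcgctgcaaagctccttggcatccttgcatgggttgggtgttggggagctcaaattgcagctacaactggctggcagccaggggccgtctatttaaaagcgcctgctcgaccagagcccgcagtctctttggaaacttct

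The Igf1 window held an AP-1 match that starts 37 bases before the gene's start and a CCAAT match at 142 bases. The Igf1r window held 2 GC boxes, at 43 and 26 bases before the start, and 77.6% of its bases were G or C, beside a median of 52.4% over all promoters. The Igfbp3 and Igfbp5 windows held none of these letters. One of the Igfbp2 promoters held an AP-1 match at 39 bases. Of all 32851 promoters, 6.75% held an AP-1 match in a window of this length, 1.55% a CRE, 12.4% a TATA box, 32.7% a GC box and 33.8% a CCAAT box. GC boxes were also in promoters of other members, with 3 in a window of Igfbp2, 4 in that of Igfbp7 and 3 over those of Igf2, so that they were not particular to Igf1r.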

How the data were processed

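RNA of 12 samples was hybridised to Illumina mouse BeadChips, 1 array per sample. Groups and replicate numbers came from the labels. The authors deposited bead intensities with a detection p-value for 45281 probes, and normalized log2 values for 21004 of them. Per the study's methods, the authors subtracted background with negative control probes and normalized with vsn, whose version is not given in the sources used here. The number of arrays limits the precision.

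The deposited log2 values were tested with limma 3.58.1 in R 4.3.3 (lmFit and eBayes), with Benjamini-Hochberg adjustment over all 21004 probes and a threshold of a fold above 2 and an adjusted p under 0.05. Each comparison used its own 6 arrays. The interaction, called by adjusted p alone, and the average over both genotypes used all 12. On simulated data with 200 probes changed by 2 log2 units, 91.9% were recovered for injury in WT, 91.2% in Mapk9 KO and 79.8% for the interaction, over 21004 probes. The simulated arrays had independent noise, and smaller changes were not simulated.

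Members and gene lists were chosen with earlier results of these data known. All member probes were named, together with Mapk9, every pathway gene past the threshold, and the 3 closest patterns to Igf1 and Igf2. Some genes of the pathway list are not reported here and were left out of its counts. Symbols were updated through the RefSeq table, and 2860 probes kept the file's name. Same-numbered arrays deviated together (correlation of deviations from group means 0.153 to 0.390 in 18 pairs, -0.289 to 0.0825 in 36 pairs of other numbers), so the replicate block was run as an alternative. The other alternatives were background correction and normalization (normexp with quantile, quantile alone, array medians), a detection filter, all arrays in 1 fit, the code number of the labels as a block, the t-test of the methods, the fold limit, 1 probe per symbol, and leaving out each array.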

Additional observations from a re-analysis of the deposited data

How the results depend on the processing

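Directions held for every member probe in both injury comparisons except Igf2 in WT. Its log2 change of 0.14 was -0.0833 with normexp background correction and quantile normalization, -0.0844 with quantile normalization without background correction, and -0.24 to 0.44 with 1 array left out. With 1 array left out, 5 to 8 member probes were called in WT (7 with all arrays), 9 to 11 in Mapk9 KO (10) and 7 to 9 over both genotypes (7). Of all probes, 13.3% to 16.3% were then called in WT (14.7% with all arrays), 18.6% to 19.6% in Mapk9 KO (18.7%) and 15.8% to 16.2% over both (16%). In both genotype comparisons and in the interaction 0 member probes were called with 1 array left out. Quantile normalization without background correction gave 6 in Mapk9 KO, where 8.43% of all probes were called, and the cause was not tested. With only the highest-mean probe of each symbol, and so 9 member probes tested, the counts were 4 in WT, 5 in Mapk9 KO and 3 over both genotypes. Of all probes tested in this way, 14.7%, 18.6% and 16.1% were called. With every probe but without the fold limit 14 passed over both, where 46.7% of all probes did. In WT the split was 2 higher and 5 lower, but 0 and 5 with quantile normalization alone, and 2 and 3 with array medians subtracted. Of all probes, 14.7%, 5.43% and 14.7% were called in either direction in WT under these settings. The replicate block changed no count of members (7 in WT, 10 in Mapk9 KO, 0 between genotypes and in the interaction). With it 15% of all probes were called for injury in WT and 18.7% in Mapk9 KO.

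Counts for the pathway list, an alternative chosen after seeing the data, were 7 of the 34 measured genes in WT and 8 in Mapk9 KO. In probes these were 5 higher and 2 lower of 58 in WT, and 7 higher and 2 lower in Mapk9 KO. Of all probes, 14.7% and 18.7% were called. A gene counted once when any of its probes was called, so the gene counts and these shares are of unlike units. The gene counts were 3 and 2 with quantile normalization alone (5.43% and 8.43% of all probes), 12 and 17 without the fold limit (25.3% and 38.3%), and 5 in each with the highest-mean probe (14.7% and 18.6%). The t-test gave 4 in WT (7.73%), and the cause was not tested for it or for quantile normalization. With 1 array left out the gene counts were 7 to 8 in WT and 6 to 10 in Mapk9 KO (13.3% to 16.3% and 18.6% to 19.6% of all probes). Signal over background limited the values of Igfbp2, the third Igf1 probe, Igfals and most dim pathway probes.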

Other observations

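The array held 4 further Igfbp7 probes without a normalized value. They were detected on 0 of the 12 arrays, with raw signals between 90.9 and 137, so that Igfbp7 was measured by a single probe.

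The dimmer Mapk9 probe was near background. It was at 7.29, 6.23 and 7.09 in WT control and at 6.03, 5.03 and 5.81 in WT injured, where it was detected on 1 of 3 arrays (limma, adjusted p = 0.0206), so that the size of the change is not exact. The brighter Mapk9 probe changed by -0.45 in WT (SE 0.22, adjusted p = 0.163).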
